A study of Mus musculus with 8 samples.

Results

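The 10 genes described here belong to fibroblast growth factor (FGF) signalling and to the negative feedback on its ERK kinase branch. They were Fgf2, which encodes a secreted FGF, the FGF receptor genes Fgfr1, Fgfr2 and Fgfr3, the Sprouty genes Spry1, Spry2 and Spry4, the MAP kinase phosphatase genes Dusp4 and Dusp6, and the transcription factor gene Etv4. They were chosen by symbol from the 55421 genes of a table of RNA-seq read counts, and each symbol belonged to 1 row with reads in every library. FGF2 is one of the factors that sustain self-renewal in these cultures, and transcripts of Spry and Dusp genes are widely used as readouts of ERK activity.

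The samples were primary cultures of mouse undifferentiated spermatogonia (SSC culture) in a C57BL/6XDBA/2 background, started from the testes of neonatal pups and kept on irradiated mouse embryonic fibroblast feeders. The cultures came from germline knockouts labelled Stra8KO or Spo11KO and were treated with vehicle (Veh) or NRRA, with 2 libraries in each of the 4 groups. Stra8 encodes a retinoic acid target needed for meiotic initiation, and Spo11 encodes the enzyme that makes the DNA double-strand breaks of meiosis. NRRA was retinoic acid given in nutrient restriction medium, in which most of the complete SSC medium was replaced by Earle's balanced salt solution. The study describes this treatment as lasting 2 days. The complete medium held FGF2 at 10 ng/ml, and GDNF at a concentration on which the labels and the study's list of medium components differ. NRRA thus lowered both factors along with the nutrients, and the groups with NRRA differed from Veh in nutrients, growth factors and retinoic acid together. The study's reporting summary describes the sequencing as having 2 independent biological replicates. Its general statement on replicates is that mice, tissues or cells differed between them. For the 2 libraries of a group it is not given which of these differed. Genotype and culture therefore cannot be told apart, and the p-values cover the spread between these libraries, which may be technical. Wild-type cultures were not analysed here.

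Ligand-bound FGF receptors pass their signal through the docking protein FRS2, the GRB2-SOS complex and RAS to the RAF, MEK and ERK kinases. Active ERK induces transcription factors, among them ETV1, ETV4 and ETV5 of the PEA3 family, and it also induces its own inhibitors. Sprouty proteins dampen the pathway between receptor and RAF, DUSP6 dephosphorylates ERK in the cytoplasm, and DUSP4 does so in the nucleus. In spermatogonial stem cells, FGF2 and GDNF together maintain expression of Etv5 and other self-renewal genes, and GDNF reaches ERK through its own receptor, RET. Feeder fibroblasts also carry FGF receptors and express the same feedback genes.

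The members lie on 8 chromosomes, and several of them share exon positions with other genes. In GENCODE release M21 (GRCm38), Dusp6 occupies chr10:99263231-99267489 on the forward strand and Etv4 occupies chr11:101769742-101785371 on the reverse strand. Fgf2 and Spry1 are neighbours on chromosome 3, at 37348346 to 37410108 and 37639947 to 37644598. No exon of Spry2, Spry4, Dusp4, Dusp6 or Etv4 overlaps an exon of another annotated gene. Exons of Fgf2 share 895 bases with Nudt6, on the opposite strand, and Gm43439. Fgfr3 shares 998 bases with the antisense gene G630022F23Rik, Spry1 shares 710 with antisense Gm42922, Fgfr1 shares 164 with antisense Gm16159, and Fgfr2 shares 314 with Ctbp2 on its own strand. The strand setting of the counting is not given in the sources used here, so reads in these stretches may have been shared, split or dropped, and the levels of these 5 genes are uncertain to that degree. Counts per gene also do not separate the IIIb and IIIc splice forms of the receptors.

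Promoter windows from RefSeq (GRCm38.p6, 250 bases before to 50 after a transcript start) were at hand for 6 of the 10 members. None was at hand for Fgfr1, or for Etv4, Dusp4 and Spry4, which fell with NRRA in both genotypes. These genes could not be searched. ETS factors, the family of ETV4, bind around a GGAA core, and the letters CGGAAG were found, on either strand, in 16.9% of 32851 promoter windows and in that of Dusp6 alone among the 6 members. The variant AGGAAG was found in 35.4% of all windows and in those of Dusp6, Fgf2 and Fgfr2. The AP-1 letters TGACTCA (5.2% of all windows) and the CRE letters TGACGTCA (1.79%) were in no member's window. The windows of Dusp6, which had the largest NRRA response of the members, and of Spry1 and Spry2, which responded differently from Dusp6, are given here on each gene's own strand. Capitals in Dusp6 mark AGGAAG and CGGAAG read on the opposite strand, at positions -210 to -205 and -62 to -57 from the transcript start, and a match is a description of letters, not a binding site.
Dusp6 (chr10:99262981-99263280): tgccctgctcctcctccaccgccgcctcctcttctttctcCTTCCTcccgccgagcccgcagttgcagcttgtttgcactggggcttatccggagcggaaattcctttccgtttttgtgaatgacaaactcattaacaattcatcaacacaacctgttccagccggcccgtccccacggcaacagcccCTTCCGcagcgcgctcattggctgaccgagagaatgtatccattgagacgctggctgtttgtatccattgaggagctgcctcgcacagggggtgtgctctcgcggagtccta
Spry1 (chr3:37639697-37639996): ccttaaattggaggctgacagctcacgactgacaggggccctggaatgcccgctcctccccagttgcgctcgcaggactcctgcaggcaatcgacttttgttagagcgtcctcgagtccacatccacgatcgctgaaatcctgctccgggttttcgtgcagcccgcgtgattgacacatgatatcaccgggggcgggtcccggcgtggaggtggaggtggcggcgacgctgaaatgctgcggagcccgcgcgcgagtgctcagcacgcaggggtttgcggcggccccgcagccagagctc
Spry2 (chr14:105896770-105897069): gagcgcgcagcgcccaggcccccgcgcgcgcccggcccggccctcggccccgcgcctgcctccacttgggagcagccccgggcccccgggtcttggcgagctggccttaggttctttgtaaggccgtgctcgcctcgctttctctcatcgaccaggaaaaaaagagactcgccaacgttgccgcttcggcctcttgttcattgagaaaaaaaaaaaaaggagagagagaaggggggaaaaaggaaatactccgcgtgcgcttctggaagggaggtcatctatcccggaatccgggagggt

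Library totals ran from 20960794 to 27038868 counts, and the 10 largest genes took 4.48% to 5.99% of them. Across the 20588 genes tested, the typical biological coefficient of variation was 3.39%, and the lowest count of any member in any library was 89. The Stra8KO libraries held 2 and 0 reads of Stra8 in Veh and 169 and 170 with NRRA, against 28 and 12 in the Spo11KO-labelled Veh libraries and 12604 and 16191 with NRRA. Spo11 had 31 to 68 counts in the Stra8KO libraries and 72 to 148 in the Spo11KO-labelled ones, so the counts gave no sign of the Spo11 deletion and that genotype rests on the label. Germ-cell markers (Ddx4, Dazl, Piwil2 and others, 8 of 8 detected) were present in each group, with summed levels of 696 to 1589 CPM (counts per 1000000 counts of the library, after TMM scaling). Fibroblast markers (collagens, Pdgfra, Pdgfrb and others, 16 of 16 detected) summed to 8957 to 33742 CPM, so part of the RNA came from cells with fibroblast transcripts. Sertoli cell markers summed to 15.6 to 47.1 CPM, with Rhox8 at 0 in 3 groups and Fshr at 0 in Spo11KO-labelled Veh, and macrophage markers summed to 34.2 to 63.3 CPM. In such bulk RNA, fewer cells of a type and less RNA per cell cannot be told apart.

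With NRRA, Dusp6, Dusp4, Spry4, Etv4 and Spry2 fell in both genotypes, whereas Fgf2 and Fgfr2 rose in both. Fgfr1, Fgfr3 and Spry1 did not share a called direction between the genotypes. The size of the response also differed by genotype for several members, as given below. In Stra8KO, 4 members were higher with NRRA and 5 lower at an adjusted p below 0.05 (edgeR's quasi-likelihood test, Benjamini-Hochberg adjustment over all genes tested), where 41.5% of all genes tested were called, 21.4% higher and 20.1% lower. In the Spo11KO-labelled cultures 3 were higher and 6 lower, where 50.3% of all genes were called, 24.7% higher and 25.5% lower. With a change of at least 2-fold also required, 2 members were higher and 4 lower in each genotype. Over all genes the same limit left 10.6% in Stra8KO (6.96% higher and 3.61% lower) and 12.4% in Spo11KO-labelled cultures (6.89% and 5.52%). The members' median log2 change was -0.27 in Stra8KO and -0.35 in Spo11KO-labelled cultures, beside 0.01 over all genes in both. For each of the 10 members the NRRA libraries did not overlap the Veh libraries in either genotype, which also held for 69.4% and 71.9% of all genes tested.

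**Figure D1:**
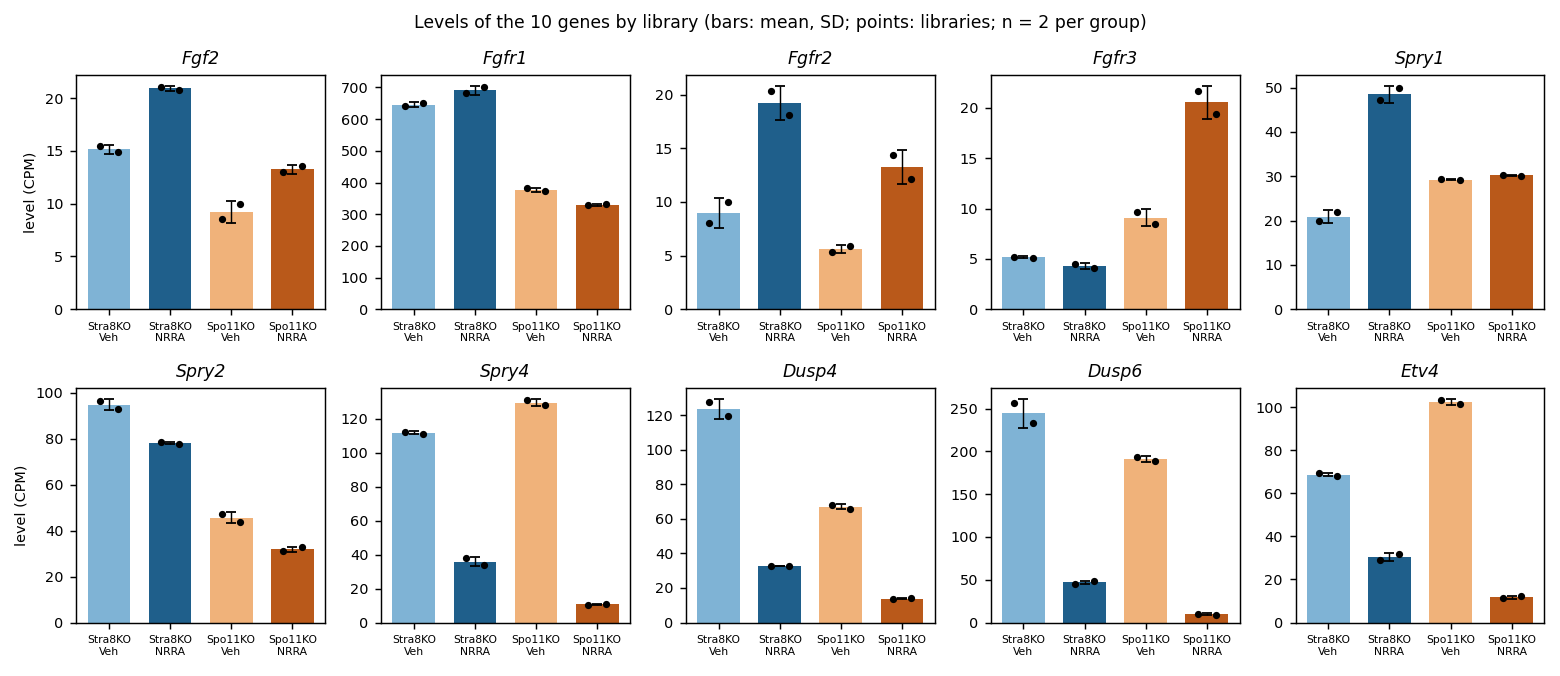
Level of each of the 10 genes (CPM after TMM scaling, linear axis from 0) in the 4 groups, with bars for the mean, error bars for the SD and points for the 2 libraries of each group. Dusp6 fell from 233 and 256 CPM to 45.6 and 48.4 CPM with NRRA in Stra8KO, and from 189 and 193 CPM to 8.63 and 10.3 CPM in the Spo11KO-labelled cultures.

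Fgf2 was the ligand in the set, and its counts measure the mouse transcript made by the cells, not the FGF2 protein added to the medium. It was at 15.4 and 14.9 CPM in Stra8KO Veh and 21.1 and 20.7 CPM with NRRA. In the Spo11KO-labelled cultures it was at 8.51 and 9.96 CPM in Veh and 13.0 and 13.5 CPM with NRRA. The rise was of similar size in both, with log2 fold changes of 0.46 (SE 0.0938, edgeR adjusted p = 7.45e-05) and 0.52 (SE 0.105, adjusted p = 5.31e-05). The difference between the genotypes in this response was -0.06 on the log2 scale (SE 0.142), which did not pass the test (adjusted p = 0.819).

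Fgfr1, the receptor gene with by far the most reads, hardly moved. It was at 641 and 651 CPM in Stra8KO Veh and 681 and 701 CPM with NRRA, and at 382 and 373 CPM in Spo11KO-labelled Veh and 328 and 332 CPM with NRRA. The log2 change was 0.10 (SE 0.0342, edgeR adjusted p = 0.0192) in Stra8KO and -0.20 (SE 0.0349, adjusted p = 8.49e-06) in Spo11KO-labelled cultures. The rise in Stra8KO was not called in 8 of 17 alternative settings (adjusted p 0.00798 to 0.188 over all 17). It was lost without Veh replicate 1 (adjusted p = 0.173), Veh replicate 2 (0.0652) or NRRA replicate 2 (0.188) of that genotype, and NRRA left the level at 107% of Veh. The 2 responses differed by 0.29 (SE 0.0488, adjusted p = 8.76e-06).

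Fgfr2, whose product binds several FGFs, roughly doubled in both genotypes. Its levels were 8.01 and 9.97 CPM in Stra8KO Veh, 20.4 and 18.1 CPM with NRRA, 5.35 and 5.92 CPM in Spo11KO-labelled Veh and 14.4 and 12.1 CPM with NRRA. The log2 changes were 1.10 (SE 0.116, edgeR adjusted p = 1.15e-10) and 1.23 (SE 0.128, adjusted p = 7.96e-11). They differed by -0.13 (SE 0.178), which did not pass the test (adjusted p = 0.680).

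Fgfr3 rose only in the Spo11KO-labelled cultures, and the difference between the responses passed the test. There it went from 9.69 and 8.48 CPM in Veh to 21.7 and 19.4 CPM with NRRA, a log2 change of 1.17 (SE 0.102, edgeR adjusted p = 5.22e-13). In Stra8KO it was at 5.23 and 5.09 CPM in Veh and at 4.54 and 4.11 CPM with NRRA, a log2 change of -0.26 (SE 0.170) that was not called (adjusted p = 0.237). The interaction, that is the Stra8KO response less the response of the Spo11KO-labelled cultures, was -1.43 (SE 0.200, adjusted p = 3.0e-07). Fgfr4, the remaining receptor gene with a kinase domain, was low, at 0.504 and 0.581 CPM in Stra8KO Veh and reached 1.80 and 1.83 CPM with NRRA. In Spo11KO-labelled cultures Fgfr4 went from 1.17 and 1.18 CPM to 2.39 and 2.52 CPM, and both rises were called (log2 changes 1.73 and 1.06, adjusted p = 0.000108 and 0.000536).

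To compare receptors with one another, counts were divided by exon length and scaled to a constant library total (transcript share per length, TPM). Fgfr1 made up 97.3% to 97.5% of the summed TPM of Fgfr1 to Fgfr4 in Stra8KO Veh and 95.7% to 96.2% with NRRA. In the Spo11KO-labelled cultures its share was 94.6% to 94.8% in Veh and 86.7% to 88.0% with NRRA. Fgfr3 held 0.777% to 0.879% of receptor TPM in Stra8KO NRRA and 7.08% to 7.92% in Spo11KO-labelled NRRA. Fgfr1 thus made up most of the receptor transcripts in each group. These came from germ cells and feeders together, so the shares within either cell type are not known. In the Spo11KO-labelled cultures the shares of the other 3 receptors were each larger with NRRA than in Veh, with Fgfr2 at 3.08% to 3.64% against 1.27% to 1.44% and Fgfr4 at 1.76% to 1.86% against 0.814% to 0.831%. In Stra8KO the share of Fgfr2 was larger with NRRA, at 2.37% to 2.74% against 1.16% to 1.42%, and that of Fgfr3 smaller, against 1.05% to 1.10% in Veh.

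**Figure D2:**
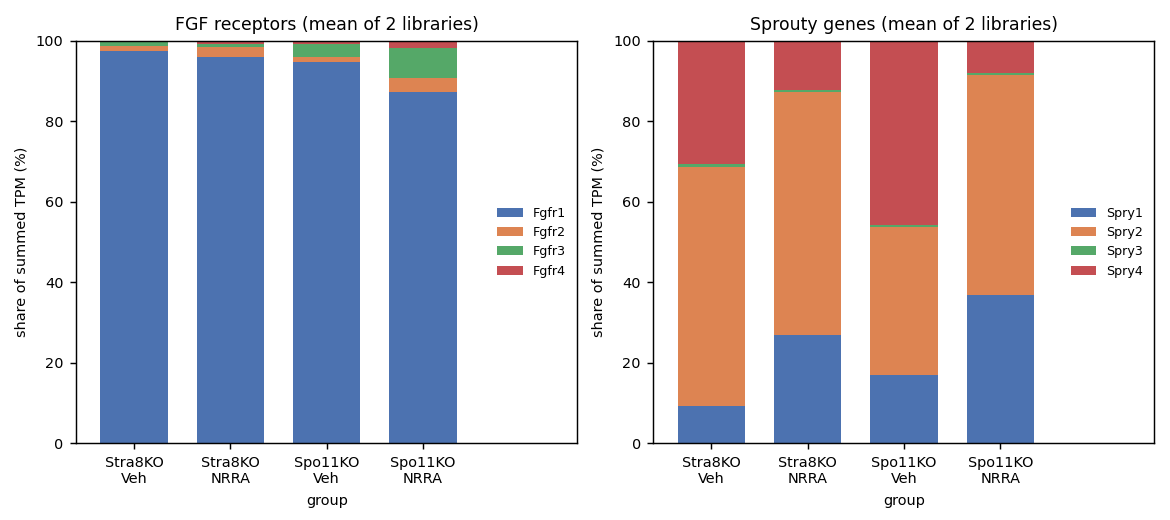
Share (%) of the summed TPM of the 4 FGF receptor genes (left) and of the 4 Sprouty genes (right) held by each gene in each group, as the mean of 2 libraries. Fgfr1 held at least 86.7% of receptor TPM in every library, while Spry4 went from 45.4% to 46.1% of Sprouty TPM in Spo11KO-labelled Veh to 7.94% to 7.98% with NRRA.

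The 3 Sprouty genes did not move together. Spry4 lost most of its transcript, Spry2 lost little, and Spry1 rose in Stra8KO. Spry4 was at 112 and 111 CPM in Stra8KO Veh and 37.9 and 33.9 CPM with NRRA, and at 131 and 128 CPM in Spo11KO-labelled Veh and 10.5 and 10.7 CPM with NRRA. This was a 3.11-fold fall in Stra8KO and a 12.2-fold fall in Spo11KO-labelled cultures, with log2 changes of -1.64 (SE 0.0571, edgeR adjusted p = 6.51e-26) and -3.60 (SE 0.0651, adjusted p = 7.63e-36). The interaction was 1.97 (SE 0.0909, adjusted p = 9.66e-21).

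Spry2 fell by less. It was at 96.6 and 93.2 CPM in Stra8KO Veh and 78.5 and 77.9 CPM with NRRA, a log2 change of -0.28 (SE 0.0529, edgeR adjusted p = 2.72e-05). In Spo11KO-labelled cultures it went from 47.3 and 43.9 CPM to 31.3 and 32.8 CPM, a log2 change of -0.51 (SE 0.0609, adjusted p = 2.33e-09). The interaction of 0.23 (SE 0.0807, adjusted p = 0.0308) was called in 4 of 16 alternative settings and was lost with DESeq2's size factors (adjusted p = 0.0726). Leaving out any of the 4 Stra8KO libraries, or replicate 1 of either Spo11KO-labelled group, also lost it (adjusted p 0.0534 to 0.179).

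Spry1 more than doubled in Stra8KO, from 19.9 and 22.0 CPM to 47.1 and 49.8 CPM (log2 change 1.22, SE 0.0728, edgeR adjusted p = 6.20e-18). In the Spo11KO-labelled cultures it was at 29.3 and 29.1 CPM in Veh and 30.3 and 30.1 CPM with NRRA, with a log2 change of 0.05 (SE 0.0698) that was not called (adjusted p = 0.606). The interaction was 1.17 (SE 0.101, adjusted p = 2.68e-12). Spry3, the fourth Sprouty gene, was low, at 2.996 and 2.42 CPM in Stra8KO Veh and 0.540 and 0.682 CPM in Spo11KO-labelled NRRA, and fell with NRRA in both genotypes (log2 changes -1.07 and -1.26 as fitted, adjusted p = 0.00122 and 0.00196). By TPM, Spry2 was the most abundant Sprouty transcript in 3 groups, with 58.7% to 59.8% of the family in Stra8KO Veh and 60.3% to 60.6% with NRRA. In Spo11KO-labelled Veh Spry4 led, with 45.4% to 46.1%, and with NRRA Spry1 and Spry2 together made up nearly all of a smaller family total of 106 to 109 TPM.

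Dusp6 had the largest response of the 10 genes in both genotypes. It was at 256 and 233 CPM in Stra8KO Veh and 45.6 and 48.4 CPM with NRRA, and at 193 and 189 CPM in Spo11KO-labelled Veh and 10.3 and 8.63 CPM with NRRA. After NRRA 19.2% of its Veh level was left in Stra8KO and 4.94% in Spo11KO-labelled cultures. The log2 changes were -2.38 (SE 0.0542, edgeR adjusted p = 3.90e-32) and -4.34 (SE 0.0666, adjusted p = 4.57e-38), and the interaction was 1.96 (SE 0.0910, adjusted p = 1.37e-20).

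Dusp4, the nuclear phosphatase gene, fell by a similar factor in each genotype. It was at 128 and 119.6 CPM in Stra8KO Veh and 32.5 and 32.6 CPM with NRRA, and at 68.0 and 65.9 CPM in Spo11KO-labelled Veh and 13.7 and 14.0 CPM with NRRA. The level left was 26.3% and 20.7% of Veh, with log2 changes of -1.93 (SE 0.0578, edgeR adjusted p = 3.49e-28) and -2.27 (SE 0.0663, adjusted p = 1.42e-28). Its interaction of 0.34 (SE 0.0910, adjusted p = 0.00366) was called, but was several times smaller than those of Dusp6, Spry4 and Etv4.

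Etv4 fell from 69.4 and 68.1 CPM to 29.2 and 31.9 CPM in Stra8KO and from 103 and 101 CPM to 11.3 and 12.3 CPM in Spo11KO-labelled cultures. The log2 changes were -1.17 (SE 0.0627, edgeR adjusted p = 1.69e-19) and -3.11 (SE 0.0667, adjusted p = 3.23e-33), with an interaction of 1.94 (SE 0.0950, adjusted p = 5.90e-20). The other PEA3 genes bracketed it. Etv5, a self-renewal factor of spermatogonial stem cells, went from 143 and 134 CPM to 92.4 and 100.3 CPM in Stra8KO but from 242 and 243 CPM to 23.5 and 24.1 CPM in Spo11KO-labelled cultures (interaction 2.82, SE 0.0725, adjusted p = 2.53e-29). Etv1 fell in both by a like amount, to 12.2% and 13.3% of its Veh level (log2 changes -3.04 and -2.91, interaction -0.13 with SE 0.187, adjusted p = 0.687).

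**Figure D3:**
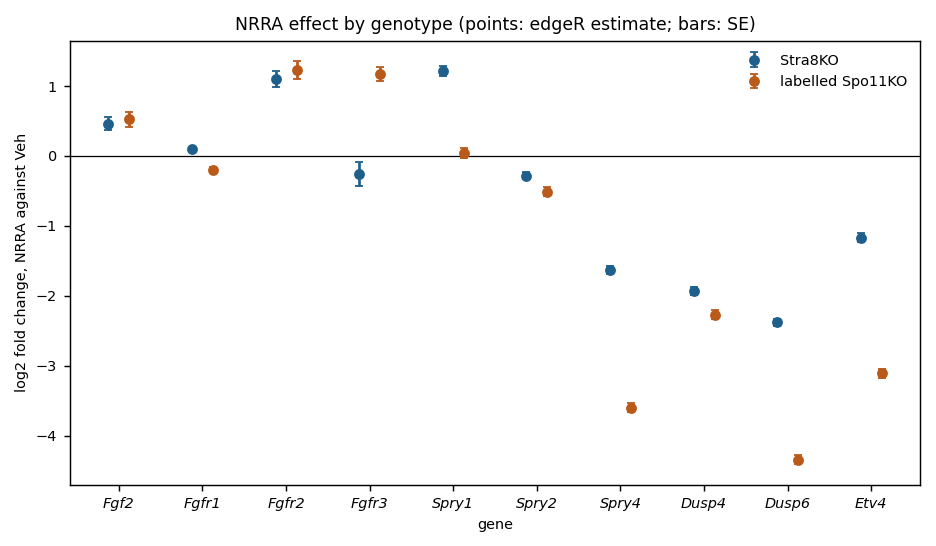
Log2 fold change of NRRA against Veh for each of the 10 genes in Stra8KO and in Spo11KO-labelled cultures, as points with SE bars from edgeR (2 libraries per group). Spry4, Dusp6 and Etv4 lie at -1.64, -2.38 and -1.17 in Stra8KO and at -3.60, -4.34 and -3.11 in Spo11KO-labelled cultures, while Spry1 and Fgfr3 each rose in a single genotype.

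Of the 5 interactions beyond 1 in size on the log2 scale, those of Spry1, Spry4, Dusp6 and Etv4 were positive, with the Stra8KO change the higher, and that of Fgfr3 was negative. In all, 7 members had an interaction called higher and 1 lower, where 24.7% of all genes tested were called, 14.6% higher and 10.1% lower. With a 2-fold limit 4 were higher and 1 lower, beside 5.62% of all genes, 3.89% higher and 1.74% lower. Both NRRA effects enter an interaction, so these counts are not separate from the NRRA effects above.

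Per length, the order of the genes changed with NRRA. In Veh, Dusp6 stood highest in both genotypes, at 253 ± 18.9 TPM in Stra8KO and 208 ± 7.84 TPM in Spo11KO-labelled cultures (SD, n = 2), followed by Fgfr1 at 212 ± 1.11 and 131 ± 4.91 TPM. With NRRA Fgfr1 stood highest, at 230 ± 1.43 and 128 ± 1.33 TPM, followed by Spry2 at 123 ± 2.52 and 58.7 ± 2.02 TPM and Spry1 at 54.7 ± 1.40 and 39.8 ± 0.201 TPM. Dusp6 had then dropped to rank 4 in Stra8KO (49.2 ± 1.40 TPM) and rank 6 in Spo11KO-labelled cultures (11.5 ± 1.40 TPM). Most neighbours in these orders did not overlap, but Spry2 and Dusp4 could not be ranked in Stra8KO Veh, nor Fgf2 and Fgfr3 in Spo11KO-labelled Veh, nor Dusp6 and Fgfr3 in Spo11KO-labelled NRRA. Fgfr2 and Fgfr3 were the lowest members in Stra8KO in both media, between 1.86 and 6.54 TPM. Fgfr2 was lowest in Spo11KO-labelled Veh, at 1.79 to 1.93 TPM, and Fgf2 and Fgfr2 were lowest in Spo11KO-labelled NRRA.

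Between the genotypes, each of the 10 members differed in both media. In Veh, 6 were higher in Stra8KO and 4 lower, where 62.1% of all genes tested were called, 31.5% higher and 30.7% lower, so that the count says little about these genes. The higher ones were Spry2 (log2 difference 1.06, SE 0.0556), Dusp4 (0.89, SE 0.0521), Fgfr1 (0.77, SE 0.0347), Fgf2 (0.72, SE 0.108), Fgfr2 (0.67, SE 0.146) and Dusp6 (0.36, SE 0.0472). The lower ones were Fgfr3 (-0.82, SE 0.142), Etv4 (-0.57, SE 0.0539), Spry1 (-0.49, SE 0.0773) and Spry4 (-0.21, SE 0.0494), with adjusted p at or below 0.000262 by edgeR for all 10. Spry2 alone differed by 2-fold or more in Veh, where 16.2% of all genes did (9.27% higher and 6.91% lower).

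With NRRA, 9 members were higher in Stra8KO and 1, Fgfr3, was lower, where 64.3% of all genes were called, 35.2% higher and 29.1% lower. Etv4, Spry1 and Spry4, which were lower in Stra8KO in Veh, were higher there with NRRA. The differences were 2.32 (SE 0.0763) for Dusp6, 1.75 (SE 0.0758) for Spry4, 1.37 (SE 0.0782) for Etv4, 1.29 (SE 0.0580) for Spry2 and 1.23 (SE 0.0739) for Dusp4. Fgfr1 was higher by 1.07 (SE 0.0348), Spry1 by 0.68 (SE 0.0658), Fgf2 by 0.66 (SE 0.0913) and Fgfr2 by 0.54 (SE 0.102). Fgfr3 was lower by 2.25, that is at -2.25 (SE 0.123), with edgeR adjusted p at or below 1.26e-05 for all 10. With at least a 2-fold difference, 6 members were higher and 1 lower, where 18.7% of all genes were called, 11.0% higher and 7.64% lower.

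Fibroblast and germ-cell transcripts also differed between the genotypes, and their part in these differences was not tested. In both media the 16 fibroblast markers were higher in Stra8KO, their median log2 difference being 0.98 in Veh (range 0.45 to 1.55) and 0.96 with NRRA (0.71 to 1.17). Their summed level was 16439 to 16936 CPM in Stra8KO Veh against 8957 to 9052 CPM in Spo11KO-labelled Veh, and 33150 to 33742 CPM against 16947 to 17698 CPM with NRRA. The 8 germ-cell markers were lower in Stra8KO in Veh, with a median of -0.97, and 7 of 8 were lower with NRRA (median -0.91). The exception was Nanos3, at 14.6 and 15.7 CPM in Stra8KO NRRA and 2.89 and 1.77 CPM in Spo11KO-labelled NRRA. Summed germ-cell markers were at 696 to 699 CPM in Stra8KO Veh, 806 to 848 CPM with NRRA, 1400 to 1441 CPM in Spo11KO-labelled Veh and 1533 to 1589 CPM with NRRA.

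In Veh, the differences of Fgf2, Fgfr1, Fgfr2, Spry2 and Dusp4 lay within the range of the fibroblast markers, and those of Fgfr3, Etv4 and Spry1 within the range of the germ-cell markers, -1.15 to -0.39. Dusp6 and Spry4 lay outside both ranges. With NRRA, the differences of Dusp6, Spry4, Etv4, Spry2 and Dusp4 lay above the highest fibroblast marker, at 1.17. Fgfr1, at 1.07, lay within the fibroblast range. Spry1, Fgf2 and Fgfr2, at 0.68, 0.66 and 0.54, lay below the lowest fibroblast marker, at 0.71. Fgfr3, at -2.25, lay below the lowest germ-cell marker, at -1.17. The germ-cell range with NRRA reached up to 2.72, through Nanos3. The summed fibroblast level about doubled with NRRA in both genotypes, although 9 markers rose and 5 fell in Stra8KO and 10 rose and 6 fell in Spo11KO-labelled cultures. Of the germ-cell markers 5 rose in Stra8KO, while 5 rose and 2 fell in Spo11KO-labelled cultures. More of the summed fibroblast level came from the collagen genes Col1a1, Col1a2 and Col3a1 than from the other 13 markers together.

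**Figure D4:**
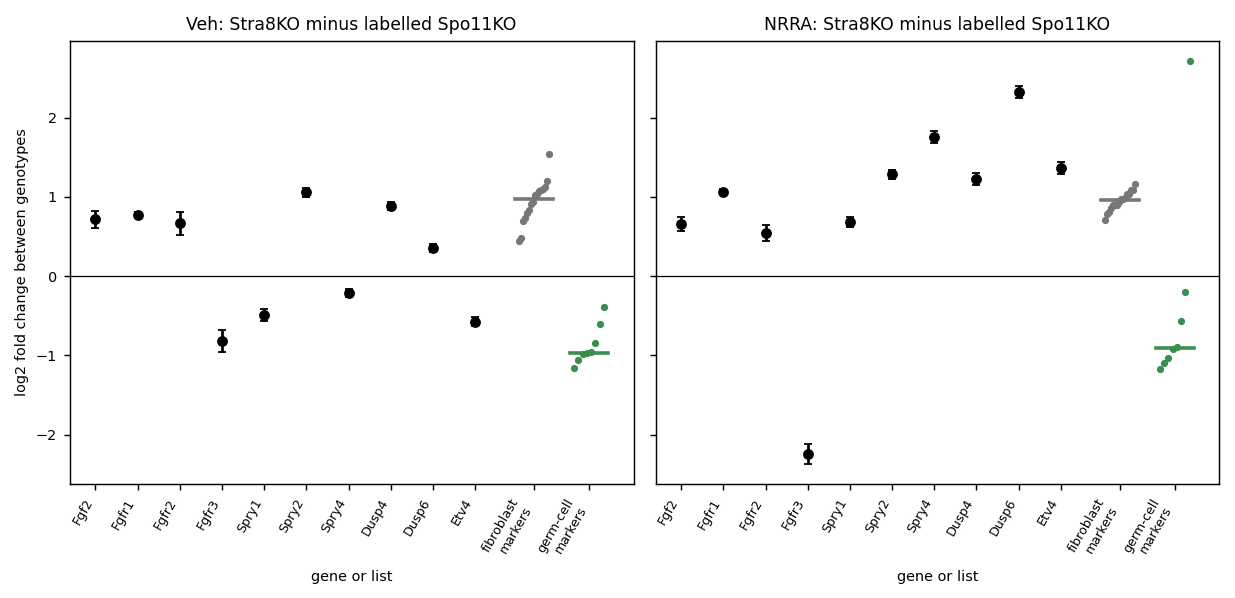
Log2 difference between Stra8KO and Spo11KO-labelled cultures in Veh (left) and NRRA (right) for each of the 10 genes (black points, SE bars from edgeR), beside the 16 fibroblast markers (grey) and 8 germ-cell markers (green), whose medians are drawn as lines. The fibroblast medians lie at 0.98 and 0.96 and the germ-cell medians at -0.97 and -0.91, while Etv4 moves from -0.57 in Veh to 1.37 with NRRA.

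The other genes of the pathway were taken from lists set by function, but drawn up with earlier results of these data known. Comparisons between the lists are therefore a description, not an independent test. Median changes were larger among genes downstream of ERK than among adaptors and kinases upstream of it. Over all genes tested, 21.4% were called higher and 20.1% lower with NRRA in Stra8KO, and 24.7% and 25.5% in Spo11KO-labelled cultures. Of the 19 ERK feedback genes, 3 rose and 15 fell with NRRA in Stra8KO (median log2 change -0.73). In Spo11KO-labelled cultures 1 rose and 15 fell (median -1.25). This list holds 5 of the members, and without them 2 rose and 11 fell of 14 in Stra8KO and 1 rose and 11 fell in Spo11KO-labelled cultures, with medians of -0.65 and -1.05. Errfi1, a feedback inhibitor of EGF receptors, went against the genotype pattern of Dusp6. It fell from 313 and 284 CPM to 54.4 and 49.99 CPM in Stra8KO and from 139 and 142 CPM to 56.8 and 60.5 CPM in Spo11KO-labelled cultures (log2 changes -2.51 and -1.25, interaction -1.26 with SE 0.0732, edgeR adjusted p = 1.77e-17). Dusp2, a nuclear phosphatase gene common in immune cells, rose from low levels in both, to 6.56 and 7.15 CPM in Stra8KO and 4.82 and 5.02 CPM in Spo11KO-labelled cultures (log2 changes 1.70 and 1.58).

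Transcription factor genes induced by ERK and growth factors fell almost throughout. Of 18, 1 rose and 15 fell in Stra8KO (median -0.80), where 20.1% of all genes tested fell. In Spo11KO-labelled cultures 1 rose and 17 fell (median -1.38), where 25.5% of all genes fell. Without Etv4, 14 of 17 fell in Stra8KO and 16 of 17 in Spo11KO-labelled cultures. The gene that rose was Klf4 in both, with log2 changes of 0.66 (SE 0.0488) and 0.66 (SE 0.0499). Fosl1, an AP-1 subunit, fell by a like amount in both (-2.12 and -1.92). The early growth response genes Egr3 and Egr2 fell further in Spo11KO-labelled cultures. Egr3 went from 23.7 and 21 CPM to 8.40 and 9.65 CPM in Stra8KO and from 59.9 and 56 CPM to 1.16 and 2.12 CPM in Spo11KO-labelled cultures, where Egr2 went from 56.3 and 56.5 CPM to 5.36 and 5.25 CPM. In this list 9 of 18 genes had an interaction called higher, beside 14.6% of all genes tested, with a median of 0.34.

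A commonly used transcript score of MAPK pathway activity is built on 10 genes, of which Spry2, Spry4, Dusp4, Dusp6 and Etv4 are members here. In it 9 of 10 genes fell with NRRA in each genotype (medians -1.20 and -2.55), beside 20.1% and 25.5% of all genes tested. Without the members 4 of 5 fell. Epha4, an ephrin receptor gene, was the one that rose, from 17.9 and 21.6 CPM to 51.3 and 49.1 CPM in Stra8KO and from 11.8 and 12.5 CPM to 26.6 and 28.0 CPM in Spo11KO-labelled cultures. Between genotypes, 6 of the 10 were higher and 4 lower in Stra8KO in Veh, where 31.5% of all genes were higher and 30.7% lower. With NRRA 10 of 10 were higher, beside 35.2% of all genes, and fibroblast markers were higher too. Without the members 3 were higher and 2 lower in Veh, and 5 of 5 were higher with NRRA.

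Among the kinase and adaptor genes upstream of ERK the changes were smaller and went both ways. Of 14 genes of the RAS-RAF-MEK-ERK cascade, 4 rose and 5 fell in Stra8KO, beside 21.4% and 20.1% of all genes tested. In Spo11KO-labelled cultures 1 rose and 7 fell, beside 24.7% and 25.5% of all genes. The medians were -0.08 and -0.10. The changes spanned -0.57 to 0.84 and -0.56 to 0.15. Map2k1, which encodes the kinase MEK1, fell in both (-0.44, SE 0.0453, and -0.56, SE 0.0451), as did Hras (-0.57, SE 0.0596, and -0.20, SE 0.0581). The scaffold gene Ksr2 rose in Stra8KO (0.84, SE 0.167) and fell in Spo11KO-labelled cultures (-0.55, SE 0.145), though at under 8 CPM throughout. Its relative Ksr1 rose in Stra8KO (0.57, SE 0.0630) and was at 0.03 (SE 0.0604) in Spo11KO-labelled cultures, where it was not called (edgeR adjusted p = 0.703). Araf, which encodes a RAF kinase, rose in both (0.23, SE 0.0556, and 0.15, SE 0.0560). In Spo11KO-labelled cultures the Araf call was lost without replicate 2 of Veh or NRRA (edgeR adjusted p = 0.451 and 0.415), that of Ksr2 without NRRA replicate 2 (0.0719), and that of Hras with scaling to total counts (0.129).

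Of 13 adaptor genes, 2 rose and 8 fell in Stra8KO, beside 21.4% and 20.1% of all genes tested. In Spo11KO-labelled cultures 3 rose and 6 fell, beside 24.7% and 25.5% of all genes. The medians were -0.19 and -0.11. The changes spanned -0.71 to 0.50 and -0.87 to 0.28. Frs2, the docking protein gene of FGF receptors, rose from 86.5 and 85.9 CPM to 126 and 118 CPM in Stra8KO and from 87.5 and 86.6 CPM to 104 and 104 CPM in Spo11KO-labelled cultures (log2 changes 0.50 and 0.26). Sos1 rose in both (0.36 and 0.20), while its paralog Sos2, an exchange factor for RAS as well, fell in both (-0.50 and -0.87). Shc1, an adaptor gene, fell by -0.42 and -0.41. Gab2 fell in Stra8KO (-0.71, SE 0.0909) but was not called in Spo11KO-labelled cultures (-0.11, SE 0.102). Gab1 rose in Spo11KO-labelled cultures (0.28, SE 0.0567) and missed the threshold in Stra8KO (0.16, edgeR adjusted p = 0.0509).

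Of 22 genes of the FGF family, 14 had enough reads to be tested. Not all of the 22 encode receptor ligands. In Stra8KO 2 rose and 5 fell, beside 21.4% and 20.1% of all genes tested. In Spo11KO-labelled cultures 4 rose and 4 fell, beside 24.7% and 25.5% of all genes. The medians were -0.17 and -0.22. Fgf10, a ligand of mesenchymal cells, was at 49.4 and 51.9 CPM in Stra8KO Veh and 23.3 and 22.3 CPM in Spo11KO-labelled Veh, and fell in both (-0.78, SE 0.0682, and -0.78, SE 0.0828). Fgf9 and Fgf18 fell at low levels, with log2 changes of -0.78 and -0.48 in Stra8KO and -1.85 and -1.81 in Spo11KO-labelled cultures. In Stra8KO the call of Fgf18 was lost without any of the 4 Stra8KO libraries (edgeR adjusted p 0.0965 to 0.172), and that of Fgf9 without Veh replicate 1 (log2 change -0.36, adjusted p = 0.387) or NRRA replicate 2 (0.0726). Fgf13, which encodes an intracellular protein of the family and not a receptor ligand, rose in both (1.44, SE 0.280, and 2.39, SE 0.182). Fgf22 rose in Spo11KO-labelled cultures (0.77, SE 0.186) and was at -0.16 (SE 0.232, not called) in Stra8KO. Fgf2 and Fgf13 were the 2 genes of this list called higher in both genotypes.

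Of 12 receptor and co-receptor genes, 9 were tested. In Stra8KO 4 rose and 2 fell, beside 21.4% and 20.1% of all genes tested. In Spo11KO-labelled cultures 5 rose and 2 fell, beside 24.7% and 25.5% of all genes. The medians were 0.10 and 1.00. Besides Fgfr2 and Fgfr4, Flrt3 rose in both (log2 changes 1.37, SE 0.135, and 1.6, SE 0.168), whereas Flrt2 fell in both (-0.33, SE 0.0422, and -0.25, SE 0.0438). Both encode membrane proteins that can associate with FGF receptors. Fgfbp3, which encodes an FGF carrier, fell in Stra8KO (-0.53, SE 0.164) and was not called in Spo11KO-labelled cultures (-0.27, SE 0.215). The Stra8KO call of Fgfbp3 was lost without replicate 2 of Veh or NRRA (edgeR adjusted p = 0.0520 and 0.0527).

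**Figure D5:**
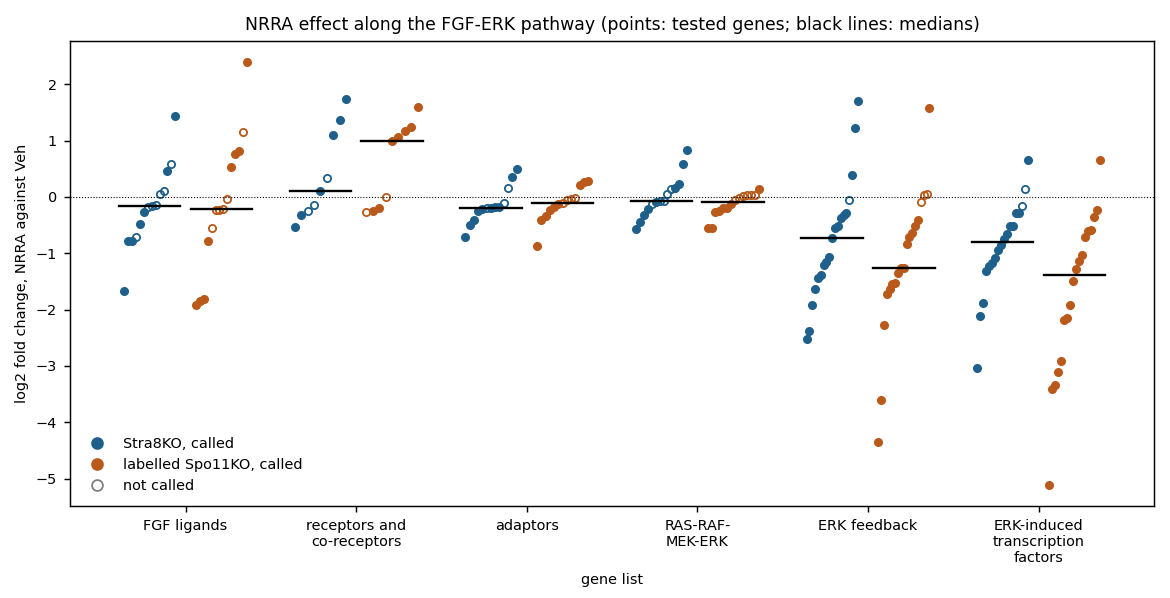
Log2 fold change of NRRA against Veh for the tested genes of 6 pathway lists in Stra8KO (blue) and Spo11KO-labelled cultures (orange), where filled points were called by edgeR, open points were not, and black lines mark medians. The medians of the ERK feedback list lie at -0.73 and -1.25 and those of the ERK-induced transcription factors at -0.80 and -1.38. The adaptor and kinase lists lie between -0.19 and -0.08, and the receptor and co-receptor list lies at 0.10 and 1.00.

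The group means of Etv4, Dusp6 and Spry4 were set against those of 10766 further genes. These had a log2 CPM averaging 3 or more, with the 10 members and genes with predicted-gene or clone names left out. Likeness was the mean absolute difference of the 4 group means after centring each gene. Closest to Etv4 were Hlx (0.0975 on the log2 scale), Epha2 (0.110) and Pcdh1 (0.134). Closest to Spry4 were Pcdh1 (0.193), Foxa2 (0.211) and Hlx (0.224). None of the genes compared came as near to Dusp6, for which Upp1 (0.466), Egr3 (0.469) and Mpzl2 (0.475) were closest. Among the members themselves, Etv4 and Spry4 differed by 0.239 and Dusp6 and Spry4 by 0.370, while Dusp6 and Fgfr2 differed by 2.26. Fgfr1 and Spry2 were the closest pair of the 10, at 0.173. Likeness over 4 group means is a description of these libraries.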

How the data were processed

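RNA of these cultures was sequenced as 8 libraries on an Illumina NovaSeq, poly(A)-selected and strand-selected by the study's methods. The authors deposited raw read counts per gene, not normalized and not pooled. The submitters' processing notes name bcl2fastq, STAR 2.6.1c, featureCounts 1.6.4 and mm10, the study's software list names another STAR version, and the annotation release, strand setting and treatment of multi-mapping reads are not given in the sources used here. Counts of genes that share sequence or exons are uncertain for that reason.

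Counts were fitted in R 4.3.3 with edgeR 4.0.16 (TMM factors, filterByExpr, quasi-likelihood test with robust dispersion, 1 model of the 4 groups over all 8 libraries), with p adjusted by Benjamini-Hochberg over the 20588 genes tested, which held 99.88% of counts, and called below 0.05. CPM are counts per 1000000 after TMM, and TPM uses exon lengths of GENCODE M21, which held 55240 of 55421 identifiers (99.67%). Groups came from the labels. The 2 libraries of a group differed beyond sampling noise (median chi-square 0.741 to 0.973 per gene, against 0.455 for noise alone). Same-numbered libraries of different groups did not deviate together (correlations -0.027 to 0.056), so numbers were not taken as pairs. Library totals of 20960794 to 27038868 counts limit precision for genes of a few CPM, and p-values rest on 2 libraries per group. The script was tested on simulated data.

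The members and the gene lists were chosen with earlier results of these data known. Named outside the members were Fgfr4, Spry3, Etv1 and Etv5, the 2 largest called rises and falls of each pathway list in each genotype with NRRA (average log2 CPM of at least 1), and the 3 genes most like Etv4, Dusp6 and Spry4 (average log2 CPM of at least 3). Genes with predicted-gene or clone names were left out of the search for like genes. Nudt6 and other overlapping genes, single markers and promoter motifs were named outside that rule, and the motifs after several had been searched (a serum response element sequence was also searched and is not reported here). Alternatives were other scaling (DESeq2 1.42.0 size factors, total counts), other filters, DESeq2's Wald test, only the libraries compared, a replicate block, stricter thresholds and leaving out each library.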

Additional observations from a re-analysis of the deposited data

Results flagged for a closer look

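For 8 of the 10 genes and for the 13 further genes listed here, the NRRA effect differed between Stra8KO and Spo11KO-labelled cultures. The test was edgeR's interaction test at an adjusted p below 0.05, which 24.7% of all genes tested passed. Genes named only as markers or for their likeness to a member are not listed. Values are the log2 change in Stra8KO minus that in Spo11KO-labelled cultures. Among the members, Spry4 was at 1.97, Dusp6 at 1.96, Etv4 at 1.94 and Spry1 at 1.17. Dusp4 was at 0.34, Fgfr1 at 0.29, Spry2 at 0.23 and Fgfr3 at -1.43. The Spry2 call held in 4 of 16 alternative settings. Among transcription factor genes, Egr3 was at 3.81, Etv5 at 2.82 and Egr2 at 2.47. The feedback inhibitor Errfi1 was at -1.26, opposite in sign to Dusp6 and Spry4. Among ligand genes, Fgf18 was at 1.33, Fgf9 at 1.07 and Fgf22 at -0.93. The Fgf9 call was lost without Stra8KO Veh replicate 2, Stra8KO NRRA replicate 1 or Spo11KO-labelled NRRA replicate 1 (edgeR adjusted p = 0.0855, 0.0778 and 0.055). That of Fgf22 was lost without Stra8KO Veh replicate 2, Stra8KO NRRA replicate 1 or replicate 2 of Spo11KO-labelled Veh or NRRA (0.133, 0.056, 0.0758 and 0.0849). Among adaptors, Sos2 was at 0.38, Frs2 at 0.24 and Gab2 at -0.60. The Frs2 call was lost without Stra8KO NRRA replicate 1 (edgeR adjusted p = 0.0701) and that of Sos2 without Spo11KO-labelled NRRA replicate 1 (0.0771). Among genes of the RAS-RAF-MEK-ERK cascade, Ksr2 was at 1.39, Ksr1 at 0.54 and Hras at -0.38. Genotype and culture cannot be told apart in these differences.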

How the results depend on the processing

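Of 840 values of the 10 genes under alternatives, 799 kept their direction and their side of the threshold, 39 lost the call and 2 changed sign. Both were interactions that were not called, Fgf2 (-0.06) with a range of -0.177 to 0.0491 and Fgfr2 (-0.13) with -0.287 to 0.0307 on leaving out 1 library. Most losses came from the 2-fold limit, with which 2 members rather than 4 were higher with NRRA in Stra8KO, 1 rather than 6 was higher and 0 rather than 4 lower in Stra8KO in Veh, and 4 rather than 7 had a higher interaction. Without 1 library, 3 to 4 members were higher with NRRA in Stra8KO and 6 to 7 had a higher interaction. Scaling to total counts moved the median of all genes from 0.00 to -0.11 between genotypes in Veh and from 0.07 to -0.14 with NRRA, and from 0.01 to 0.10 for NRRA in Spo11KO-labelled cultures. The share of called genes that were higher then went from 54.7% to 39.5% between genotypes with NRRA, from 49.2% to 61.8% for NRRA in Spo11KO-labelled cultures and from 59.2% to 38.7% in the interaction (46.3% with no filter). Interactions over all genes numbered 3014 higher and 2080 lower, against 3415 lower with total counts, 2002 higher with DESeq2's Wald test and 1300 lower at an adjusted p below 0.01. The 2-fold limit left 1432 of 4410 higher and 743 of 4138 lower genes for NRRA in Stra8KO, 1419 of 5087 and 1137 of 5259 in Spo11KO-labelled cultures, 1908 of 6476 and 1423 of 6315 between genotypes in Veh, 2272 of 7245 and 1572 of 5989 with NRRA, and 800 and 358 interactions. Of 1106 counts over pathway lists under alternatives without that limit, 72 moved by over 1.5 times, and 52 of 70 did with it. With the replicate number as a block the counts of members called were the same in each comparison (4 higher and 5 lower for NRRA in Stra8KO), and the calls over all genes were 4401 higher and 4108 lower. The pairing of numbers was not shown by the data. Interactions of Fgf9, Fgf22, Frs2 and Sos2 lost their call with DESeq2's Wald test (adjusted p = 0.0566, 0.0772, 0.0603 and 0.0683). Among the further genes, values that were not called changed sign under some alternatives. Without 1 library the NRRA effect ran from -0.330 to 0.0115 for Fgf22 in Stra8KO, and from -0.0458 to 0.0772 for Ksr1 in Spo11KO-labelled cultures. The genotype difference ran from -0.141 to 0.201 for Fgf22, -0.421 to 0.0647 for Fgf18 and -0.0178 to 0.837 for Dusp2 in Veh, and from -0.0172 to 0.0525 for Sos1 with NRRA. Interactions ran from -0.280 to 0.00536 for Etv1, -0.0396 to 0.0328 for Fgf10, -0.450 to 0.00273 for Fgfbp3, -0.0416 to 0.0270 for Shc1, -0.357 to 0.493 for Dusp2 and -0.0422 to 0.0407 for Klf4. With total counts, genotype differences in Veh were -0.0832 for Fgf22 and -0.0927 for Sos2, the Araf interaction was -0.0117, and the Sos1 difference with NRRA was -0.191 and called (edgeR adjusted p = 0.000445). That of Sos1 was -0.00494 with DESeq2 size factors, -0.0375 with no filter, -0.00482 with DESeq2's Wald test and -0.0562 with only the libraries compared. With a minimum average of 10 counts the interactions of Fgf10 and Klf4 were 0.00203 and 0.00224. Depth limited Fgfr4 and Spry3, at under 3 CPM.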
